A study of Mus musculus with 24 samples.

Results

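The genes described here are 45 mouse genes of S phase and mitosis, the parts of the cell cycle in which DNA is copied and chromosomes are separated. They were chosen by name, through the gene symbol that the array annotation gives each probe, and no level entered the rule. The choice was made with earlier results of these data known. Of the 45 genes, 41 have at least 1 probe (68 probes, 13 genes with several) among the 16593 named genes with a probe. Ccnb1, Aurkb, Racgap1 and Mki67 are not analysed here. A probe was called detected on an array at a detection p-value under 0.01, and genes detected on at least 2 of the 24 arrays were tested. That left 31 of the 45 genes among 8969 tested. Mcm3 and Cdca8 were detected on 1 array each, and Ccne2, Ccna2, Ccnb2, Cenpe, Bub1, Bub1b, Ube2c and Kif20a on none. Ccne1, Foxm1, Kif11, Top2a and Tpx2 were detected in tumors only, so they entered the tests through the tumors, and counts over the 31 genes are therefore given beside counts over all 41 with a probe.

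The samples were liver RNA of 9-month-old male mice, either wild-type C57BL/6J or backcrossed Chop-/- mice, 1 sample to an Illumina MouseRef-8 v2.0 array. CHOP, encoded by Ddit3, is a transcription factor of the stress response, and the Chop-/- mice carry a constitutive deletion of most of its reading frame in every cell. Mice received PBS or 1 injection of 25 mg/kg diethylnitrosamine (DEN), a liver carcinogen, at 15 days of age. After PBS there were 3 whole livers of each genotype. After DEN there were 6 wild-type and 7 Chop-/- whole livers, and separate samples of 3 large wild-type and 2 large Chop-/- tumors. Per the study, the DEN-treated livers held both nodules and uninvolved tissue. Nothing in the sources used here says which tumor came from which mouse. Levels are log2 values after background correction and quantile normalization, and a level of one probe cannot be set against that of another.

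Between 8953 and 11248 probes were detected per array. Both probes for Ddit3 were detected on all 12 wild-type arrays and on 0 of the 12 Chop-/- arrays, although it was not checked whether they lie inside the deletion. Markers of hepatocytes were high on every array, with a summed log2 level of 17.25 to 17.50 in livers and 16.95 to 17.17 in tumors. Arrays are named by their set (A, B or C) and a number. The wild-type tumors were on arrays A_04, A_08 and B_12 and the Chop-/- tumors on B_16 and C_24, so only set B holds tumors of both genotypes. One DEN-treated Chop-/- liver, on array B_15, stood apart from the other livers for many of these genes and is described below.

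A cell that leaves quiescence loads the MCM helicase onto origins of replication, raises its supply of deoxynucleotides and copies its DNA, and later builds a spindle, checks that every chromosome is attached and divides. In quiescent cells many of these genes are held silent by the DREAM complex, which binds E2F sites in promoters of S phase genes and CHR elements in promoters of mitotic genes. In cycling cells E2F factors drive the first set, and B-MYB, NF-Y bound to CCAAT boxes and FOXM1 drive the second. Most hepatocytes of an adult liver are quiescent, so transcripts of both sets are scarce in normal liver and are widely used as a measure of dividing cells in liver tumors.

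The promoters of members that moved differently are shown because the 2 kinds of site are read by different factors. Each line is the 120 bases before a start site of the RefSeq promoter table (GRCm38.p6), 5′ to 3′ on the gene's own strand. For Tk1 that start lies downstream of the outer end of the annotated locus, so that 73 of the 120 bases fall inside it. For Prc1 the table gives 2 start sites, the downstream one is used, and 31 of the bases fall inside the locus. The other 4 windows lie outside their loci. Capitals mark the letters of a CHR element (TTTGAA or TTCGAA), of an E2F core (TTCCCGC or TTGGCGC) and of a CCAAT box (CCAAT), each searched on both strands. Prc1 lies at chr7:80294356-80294475 (+ strand), Cdc20 at chr4:118437344-118437463 (- strand) and Cdk1 at chr10:69352913-69353032 (- strand), all mitotic genes whose levels rose in tumors. Mcm6, a replication gene that rose, lies at chr1:128359706-128359825 (- strand). Pcna, at chr2:132253181-132253300 (- strand), and Tk1, at chr11:117826015-117826134 (- strand), are S phase genes that did not rise.
Prc1: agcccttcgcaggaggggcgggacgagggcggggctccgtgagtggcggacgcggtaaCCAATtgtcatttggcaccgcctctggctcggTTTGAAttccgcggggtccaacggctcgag
Cdc20: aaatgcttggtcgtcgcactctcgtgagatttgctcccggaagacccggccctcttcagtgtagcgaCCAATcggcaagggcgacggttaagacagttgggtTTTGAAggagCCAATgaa
Cdk1: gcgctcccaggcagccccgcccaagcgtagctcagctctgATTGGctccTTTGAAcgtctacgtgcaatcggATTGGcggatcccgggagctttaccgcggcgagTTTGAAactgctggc
Mcm6: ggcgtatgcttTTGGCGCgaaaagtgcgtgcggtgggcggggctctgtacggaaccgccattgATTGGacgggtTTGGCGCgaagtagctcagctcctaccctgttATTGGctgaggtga
Pcna: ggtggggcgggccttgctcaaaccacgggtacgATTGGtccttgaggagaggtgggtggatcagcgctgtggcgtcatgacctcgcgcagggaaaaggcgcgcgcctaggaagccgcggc
Tk1: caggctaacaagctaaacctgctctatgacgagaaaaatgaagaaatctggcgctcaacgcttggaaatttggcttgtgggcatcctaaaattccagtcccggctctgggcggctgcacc

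Prc1, Cdc20 and Cdk1 each hold a CHR element close to a CCAAT box in these windows, Mcm6 holds 2 E2F cores and 2 CCAAT boxes, Pcna holds 1 CCAAT box and Tk1 holds none of the 3 motifs. Over the longer window of 250 bases before to 50 bases after the start, a promoter was given for 37 of the 45 members. A CHR element was found in 21 of the 37 (56.8%), against 21.7% of all 27025 promoters. A CCAAT box was found in 28 (75.7%, against 41.1%), and both together in 20 (54.1%, against 9.65%). The E2F core was found in 10 (27%, against 7.79%). E2F cores and CCAAT boxes can overlap where the letters allow. Among the 17 members with a promoter that were called higher in wild-type tumors than in both groups of wild-type liver, 11 (64.7%) held a CHR element and 4 (23.5%) an E2F core. Among the 20 other members the counts were 10 (50%) and 6 (30%). These 20 include members that were not tested, so they are not a set of genes that did not rise. Bub1, Bub1b, Ccnb2, Cdca8, Ube2c, Mki67 and Racgap1, which hold a CHR element, are among the untested. These are matches of letters and not measured binding. Only the exact letters given above were searched, so a window without a match, as for Tk1, may still hold a variant site. The 6 promoters shown were picked by how their genes moved, and no link between motif and change was tested.

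In wild-type tumors most of the tested S phase and mitosis genes were higher than in liver. Against DEN-treated wild-type livers, 23 of 31 were called higher (limma with Benjamini-Hochberg adjustment over 8969 genes, adjusted p under 0.05) and 1, Tk1, was called lower, where 12.1% of all genes tested were called higher and 10.2% lower. The median log2 difference was 1.13 over the members and -0.01 over all genes, and 1.09 with the 7 members undetected in a group at their bound. Against PBS-treated wild-type livers, 20 were called higher and 0 lower, where 10.8% and 8.42% of all genes were, with a median of 1.18 (0.94 with bounds). Without a filter on dim probes the counts over all 41 members were 23 higher and 1 lower against DEN-treated livers (6.23% and 4.98% of 16593 genes) and 20 higher and 0 lower against PBS-treated livers (5.3% and 4.18%). The 2 comparisons share the tumors. Markers of other cell types moved in the comparison with DEN-treated wild-type livers too. Of 9 macrophage markers 5 were called lower and 0 higher, with a summed log2 level of 10.68 to 11.39 in tumors and 11.20 to 12.07 in livers. Of 7 endothelial markers 4 were called higher (12.33 to 13.19 against 12.28 to 12.59), and of 9 stellate cell and fibroblast markers 4 were called higher (12.60 to 12.85 against 12.49 to 12.66), with 0 lower in either list. Their part in the result was not tested. In a bulk sample more cells of a dividing type and more RNA per cell cannot be told apart.

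**Figure D1:**
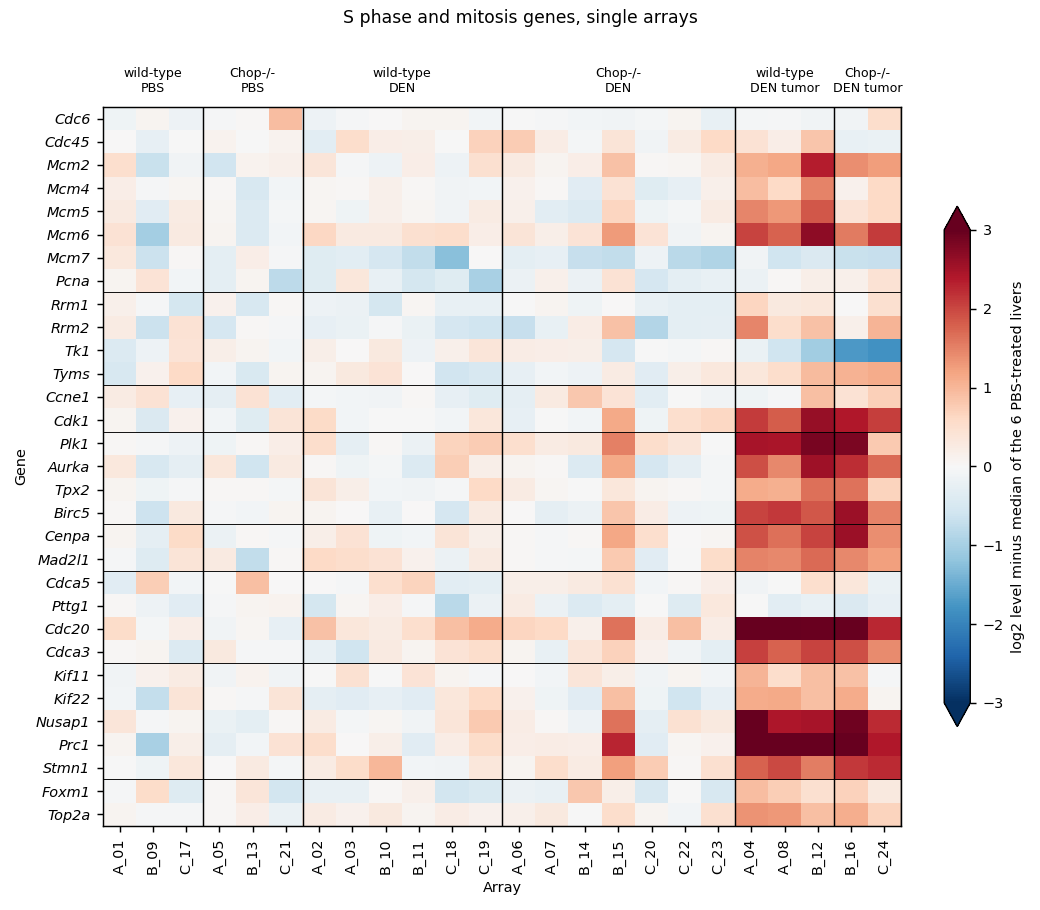
Heat map of the 31 tested S phase and mitosis genes (rows, ordered by role with lines between roles) on the 24 arrays (columns, by group); the color is the log2 level minus the median of the 6 PBS-treated livers, with colors saturating at a difference of 3 in either direction. The 5 tumors are red for most mitotic genes, array B_15 is red among the DEN-treated Chop-/- livers, and Tk1 is blue in the tumors.

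The genes of spindle and cytokinesis were among those with the largest differences. Prc1, which bundles microtubules at the spindle midzone, was at 5.70, 4.64 and 5.79 in PBS-treated wild-type livers (arrays A_01, B_09 and C_17) and at 5.36, 5.54 and 6.06 in PBS-treated Chop-/- livers (A_05, B_13 and C_21). In DEN-treated livers it ran from 5.28 to 6.18 (median 5.82) in wild-type and from 5.29 to 7.91 (median 5.82) in Chop-/- mice. The tumors stood at 9.13, 8.82 and 9.10 in wild-type (A_04, A_08 and B_12) and at 9.27 and 8.01 in Chop-/- mice (B_16 and C_24). No tumor overlapped any liver, and the liver nearest to the tumors was B_15 at 7.91. Prc1 was 3.21 higher on the log2 scale in wild-type tumors than in DEN-treated livers (SE 0.40, adjusted p = 6.78e-06) and 2.62 higher in Chop-/- tumors (SE 0.45, adjusted p = 8.72e-05).

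Nusap1, a microtubule-binding protein of the spindle, was at 5.28, 4.87 and 4.99 in PBS-treated wild-type and 4.72, 4.63 and 4.96 in PBS-treated Chop-/- livers, where it was detected on 0 of 6 arrays. After DEN it ran from 4.80 to 5.70 (median 5.07) in wild-type and from 4.66 to 6.53 (median 5.14) in Chop-/- livers. Wild-type tumors read 7.90, 7.33 and 7.38, and Chop-/- tumors 7.84 and 7.16. All 5 tumors were above all 19 livers. It rose by 2.41 in wild-type tumors against DEN-treated livers (SE 0.29, adjusted p = 5.51e-06) and was at least 4.34-fold higher than in PBS-treated livers (adjusted p = 2.39e-05), a bound against the lowest signal of a detected probe since it was undetected there. The other members of the group with a test rose too in wild-type tumors. Stmn1, which destabilizes microtubules, rose by 1.43 (SE 0.24, adjusted p = 0.000124), and Kif22, a kinesin that moves chromosome arms, by 1.09 (SE 0.29, adjusted p = 0.00873). Kif11, the kinesin that pushes spindle poles apart, was undetected in all livers and stood at 5.46, 4.97 and 5.33 in wild-type tumors and 5.32 and 4.39 in Chop-/- tumors, with the highest liver at 4.89. It passed the test in wild-type tumors (adjusted p = 0.00825), without a bound on its fold, and not in Chop-/- tumors (adjusted p = 0.161).

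**Figure D2:**
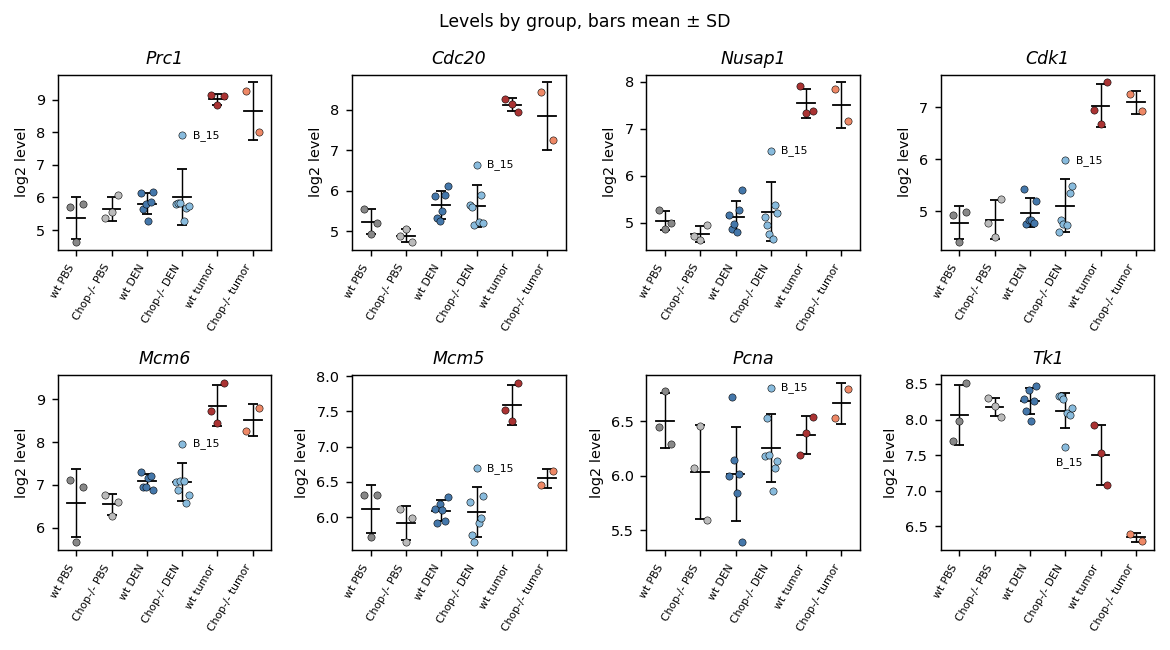
Log2 level (vertical axis) of 8 genes by group (horizontal axis); each point is 1 array, wt is wild-type, and bars show the mean ± SD. Prc1, Cdc20, Nusap1, Cdk1 and Mcm6 are higher in all 5 tumors than in all 19 livers, Mcm5 is higher in the wild-type tumors than on every other array, Pcna overlaps between tumors and livers, and Tk1 is lowest in the Chop-/- tumors; array B_15 is labelled.

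Cdc20, the activator of the anaphase-promoting complex, was at 5.56, 4.95 and 5.20 in PBS-treated wild-type and 4.89, 5.05 and 4.75 in PBS-treated Chop-/- livers. It ran from 5.24 to 6.11 (median 5.69) in wild-type livers given DEN and from 5.16 to 6.64 (median 5.61) in DEN-treated Chop-/- livers. In tumors it was at 8.27, 8.15 and 7.95 (wild-type) and 8.43 and 7.26 (Chop-/-), above every liver. It rose by 2.46 in wild-type tumors against DEN-treated livers (SE 0.28, adjusted p = 3.01e-06) and by 2.21 in Chop-/- tumors (SE 0.32, adjusted p = 1.06e-05). Among the 3 probes for Cdc20 that were detected, the differences in wild-type tumors were 2.46, 1.80 and 2.05. Cdca3, a trigger of mitotic entry, stood at 8.27, 7.99 and 8.25 in wild-type and 8.15 and 7.64 in Chop-/- tumors, against 5.81 to 6.52 in PBS-treated livers, and after DEN 5.62 to 6.74 (median 6.39) in wild-type livers and 5.94 to 6.91 (median 6.31) in Chop-/- livers. Its rise was 1.87 in wild-type tumors (SE 0.23, adjusted p = 5.89e-06) and 1.58 in Chop-/- tumors (SE 0.26, adjusted p = 5.01e-05). A second probe for Cdca3, detected on 7 arrays, differed by 1.57 in wild-type and 0.71 in Chop-/- tumors. The other tested genes of anaphase and cohesion were not called. Pttg1, the securin that restrains separase, ran from 5.46 to 5.77 in wild-type tumors and from 4.98 to 5.98 in DEN-treated wild-type livers (log2 difference 0.03). Cdca5, a protector of cohesion, was detected on 1 of 3 wild-type tumors and on 1 of the 19 livers, and no fold is given for it.

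Plk1, Aurka, Tpx2 and Birc5, the tested genes grouped as mitotic kinases and passenger complex, all rose in tumors of both genotypes. Plk1, the polo kinase, was at 5.04, 4.97 and 4.83 in PBS-treated wild-type and 4.85, 5.02 and 5.20 in PBS-treated Chop-/- livers, where it was undetected. It ran from 4.73 to 5.75 (median 5.28) in wild-type livers given DEN and from 4.99 to 6.51 (median 5.36) in DEN-treated Chop-/- livers. The tumors stood at 7.46, 7.45 and 7.84 in wild-type and at 7.82 and 5.77 in Chop-/- mice. The Chop-/- tumor on C_24 was thus below the liver on B_15. The rise was 2.33 in wild-type tumors (SE 0.33, adjusted p = 2.91e-05) and 1.31 in Chop-/- tumors (SE 0.38, adjusted p = 0.00781) against DEN-treated livers, and without the tumor on B_16 the latter was 0.29 (adjusted p = 0.594).

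Aurka, the kinase that matures centrosomes, stood at 7.17, 6.68 and 7.78 in wild-type and 7.44 and 6.93 in Chop-/- tumors. It was at 5.55, 4.76 and 4.96 in PBS-treated wild-type and 5.57, 4.64 and 5.51 in PBS-treated Chop-/- livers, and ran from 4.82 to 5.96 (median 5.22) and from 4.73 to 6.36 (median 5.17) in DEN-treated wild-type and Chop-/- livers. All tumors were above all livers, with differences of 1.92 (SE 0.31, adjusted p = 0.000118) and 1.95 (SE 0.36, adjusted p = 0.000162) in the 2 genotypes. Birc5, the survivin subunit of the chromosomal passenger complex, stood at 7.13, 7.24 and 6.97 in wild-type and 7.68 and 6.60 in Chop-/- tumors. It was at 5.15, 4.49 and 5.41 in PBS-treated wild-type and 5.07, 5.03 and 5.19 in PBS-treated Chop-/- livers, and ran from 4.60 to 5.39 (median 5.12) and from 4.85 to 5.95 (median 4.98) in DEN-treated wild-type and Chop-/- livers. It rose by 2.06 (SE 0.24, adjusted p = 4.75e-06) and 1.98 (SE 0.28, adjusted p = 7.39e-06), and its 2 other detected probes each gave 1.59 in wild-type tumors. Tpx2, the activator of Aurora A, was undetected in all 19 livers and detected in all 5 tumors. It was at least 1.3-fold higher in wild-type tumors (adjusted p = 0.000133) and at least 1.25-fold higher in Chop-/- tumors (adjusted p = 0.000453, and 0.0689 without the tumor on B_16) than in DEN-treated livers.

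Cdk1 was detected in all 5 tumors, while 3 of the 4 cyclins with a probe were detected on no array. Cdk1, the kinase that drives entry into mitosis, was at 4.93, 4.41 and 4.99 in PBS-treated wild-type and 4.78, 4.50 and 5.24 in PBS-treated Chop-/- livers, detected on 0 of 6. It ran from 4.76 to 5.43 (median 4.83) in wild-type livers given DEN and from 4.61 to 5.98 (median 4.84) in DEN-treated Chop-/- livers. Cdk1 in tumors was at 6.95, 6.68 and 7.48 (wild-type) and 7.25 and 6.94 (Chop-/-). Every tumor was above every liver, and Cdk1 rose by 2.06 (SE 0.26, adjusted p = 8.57e-06) and 1.99 (SE 0.30, adjusted p = 1.85e-05) against DEN-treated livers. The cyclins with a probe gave no such reading. Ccna2, the cyclin of S phase and G2, lay between 4.29 and 4.70 on every array, Ccnb2, a mitotic cyclin, between 4.23 and 4.92, and Ccne2, a cyclin of the G1/S transition, between 4.28 and 4.90, all undetected. Ccne1, the other cyclin E, was undetected in all livers and stood at 4.58, 4.68 and 5.61 in wild-type and 5.15 and 5.43 in Chop-/- tumors, detected on 1 tumor of each genotype. It was not called in either genotype.

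Centromere and chromatin genes rose as well. Cenpa, the histone variant that marks centromeres, was at 8.56, 8.21 and 9.07 in PBS-treated wild-type and 8.31, 8.52 and 8.45 in PBS-treated Chop-/- livers. It ran from 8.35 to 8.91 (median 8.66) in wild-type livers given DEN and from 8.44 to 9.64 (median 8.52) in DEN-treated Chop-/- livers. Wild-type tumors read 10.38, 10.14 and 10.50, and Chop-/- tumors 11.06 and 9.87. No tumor overlapped a liver, and the differences were 1.70 (SE 0.25, adjusted p = 4.7e-05) and 1.73 (SE 0.29, adjusted p = 6.02e-05). Mad2l1, a subunit of the spindle checkpoint, rose by 1.25 (SE 0.24, adjusted p = 0.000568) and 1.20 (SE 0.27, adjusted p = 0.00116). Top2a, the topoisomerase that untangles sister chromatids, stood at 5.82, 5.77 and 5.37 in wild-type and 5.58 and 5.14 in Chop-/- tumors. It was undetected in every liver, at 4.55, 4.44 and 4.45 and at 4.51, 4.68 and 4.29 in PBS-treated wild-type and Chop-/- livers, and from 4.56 to 4.76 (median 4.66) and from 4.39 to 5.01 (median 4.64) in DEN-treated ones. The 5 tumors were thus above all livers. Against DEN-treated livers Top2a was at least 1.25-fold higher in wild-type tumors (adjusted p = 4.75e-05). In Chop-/- tumors it was at least 1.08-fold higher (adjusted p = 0.00273), a call that rests on 2 tumors. Against PBS-treated livers the bound was 1.18-fold in wild-type tumors, and there was no bound for Chop-/- tumors. Foxm1, the transcription factor of mitotic genes, was also undetected in livers and at least 1.21-fold higher in wild-type tumors than in DEN-treated livers (adjusted p = 0.0114, and 0.0558 without the tumor on A_04). It was not called against PBS-treated wild-type livers, with which the tumors overlapped (adjusted p = 0.125), or in Chop-/- tumors against DEN-treated livers (adjusted p = 0.139).

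**Figure D3:**
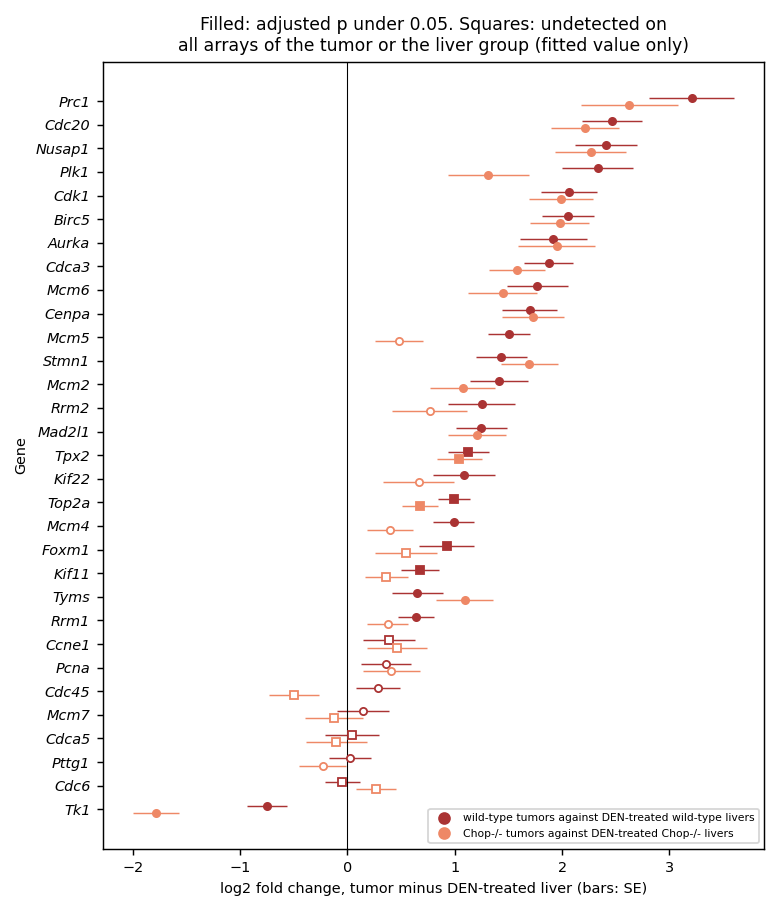
Log2 fold change of each tested gene in tumors against DEN-treated livers of the same genotype (horizontal axis; bars are the SE), ordered by the wild-type value; filled symbols passed an adjusted p under 0.05, and squares are genes undetected in all tumors or all livers compared, whose fitted value is no measured fold. Prc1 has the largest difference at 3.21 in wild-type mice, and Tk1 stands alone below 0 among the filled symbols.

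The replication genes were divided. Of the MCM helicase, Mcm6 was at 7.12, 5.67 and 6.96 in PBS-treated wild-type and 6.77, 6.28 and 6.60 in PBS-treated Chop-/- livers, and ran from 6.88 to 7.31 (median 7.06) in wild-type livers given DEN and from 6.59 to 7.96 (median 7.08) in DEN-treated Chop-/- livers. The tumors stood at 8.72, 8.45 and 9.38 in wild-type and at 8.25 and 8.78 in Chop-/- mice. Mcm6 rose by 1.77 (SE 0.28, adjusted p = 9.54e-05) and 1.45 (SE 0.32, adjusted p = 0.00103), with no overlap in either genotype. Mcm2 was at 5.75, 4.58 and 5.14 and at 4.67, 5.36 and 5.40 in PBS-treated wild-type and Chop-/- livers, and ran from 5.10 to 5.73 (median 5.33) and from 5.29 to 6.14 (median 5.44) in DEN-treated ones. Its tumors stood at 6.31, 6.41 and 7.61 and at 6.65 and 6.50. It rose by 1.41 (SE 0.27, adjusted p = 0.000537) and 1.07 (SE 0.30, adjusted p = 0.00733, and 0.06 without the tumor on B_16), again with every tumor above every liver.

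Mcm5 and Mcm4 rose in wild-type tumors against DEN-treated livers, while in Chop-/- tumors neither passed that test. Mcm5 was at 6.32, 5.72 and 6.31 and at 6.12, 5.65 and 5.99 in PBS-treated wild-type and Chop-/- livers, and ran from 5.92 to 6.29 (median 6.11) and from 5.65 to 6.69 (median 5.99) in DEN-treated ones. The wild-type tumors stood at 7.52, 7.36 and 7.91 and the Chop-/- tumors at 6.46 and 6.65. The wild-type tumors lay above all livers. The Chop-/- tumors overlapped their DEN-treated livers only through B_15 at 6.69 and lay above every other liver (at most 6.32), with differences of 1.5 in wild-type (SE 0.20, adjusted p = 1.13e-05) and 0.48 in Chop-/- mice (SE 0.22, adjusted p = 0.0901). Against PBS-treated Chop-/- livers the latter was 0.64 (adjusted p = 0.0454), a call lost without either tumor (adjusted p = 0.0721 without B_16 and 0.223 without C_24). Mcm4 stood at 8.72, 8.37 and 9.28 in wild-type and 7.91 and 8.39 in Chop-/- tumors. It was at 7.99, 7.76 and 7.84 and at 7.82, 7.30 and 7.72 in PBS-treated livers, and ran from 7.68 to 7.94 (median 7.83) and from 7.42 to 8.22 (median 7.81) in DEN-treated livers. It rose by 0.99 in wild-type tumors (SE 0.19, adjusted p = 0.000559) and differed by 0.40 in Chop-/- tumors (SE 0.21, adjusted p = 0.147).

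Mcm7, Cdc45, Cdc6 and Pcna were not called among the 31 tested members in tumors of either genotype against either liver group. Without the filter Cdc6 was represented by another probe, detected on 1 array only (the wild-type tumor on B_12), and was called higher in Chop-/- tumors against PBS-treated (adjusted p = 0.0428) and DEN-treated livers (adjusted p = 0.0447), although this probe was undetected in all of them. Mcm7, the subunit whose gene overlaps Ap4m1 and 3 microRNA genes, stood at 5.48, 5.01 and 5.15 in wild-type and 4.93 and 4.91 in Chop-/- tumors. It was at 5.91, 4.94 and 5.63 and at 5.30, 5.80 and 5.56 in PBS-treated wild-type and Chop-/- livers, and ran from 4.33 to 5.60 (median 5.17) and from 4.69 to 5.46 (median 4.90) in DEN-treated ones. Its wild-type tumors differed from DEN-treated livers by 0.15 (adjusted p = 0.728), and tumors and livers overlapped. Pcna, the sliding clamp of DNA polymerases and a common stain for dividing cells, stood at 6.19, 6.39 and 6.53 in wild-type and 6.53 and 6.80 in Chop-/- tumors. It was at 6.45, 6.78 and 6.29 and at 6.07, 6.45 and 5.59 in PBS-treated livers, and ran from 5.39 to 6.72 (median 6.00) and from 5.86 to 6.80 (median 6.18) in DEN-treated livers. The wild-type tumors lay inside the range of the livers, with differences of 0.36 against DEN-treated (SE 0.23, adjusted p = 0.304) and -0.13 against PBS-treated livers (SE 0.27, adjusted p = 0.792). Cdc45, which turns the loaded MCM ring into an active helicase, was at 5.32, 5.09 and 5.71 in wild-type and 4.66 and 4.69 in Chop-/- tumors, and from 4.56 to 5.64 in the livers. By its tested probe Cdc6, the loader of the ring, was at 4.60 or lower on every array except C_21, a PBS-treated Chop-/- liver at 5.44, and the tumor on C_24 at 5.03.

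Of the genes for enzymes that make deoxynucleotides, 1 fell by its tested probe, whose sequence was not checked. Tk1, the salvage kinase for thymidine, was at 7.70, 7.97 and 8.52 in PBS-treated wild-type and 8.30, 8.20 and 8.04 in PBS-treated Chop-/- livers. It ran from 7.98 to 8.48 (median 8.28) in wild-type livers given DEN and from 7.62 to 8.33 (median 8.16) in DEN-treated Chop-/- livers. The tumors stood at 7.92, 7.53 and 7.08 in wild-type and at 6.39 and 6.30 in Chop-/- mice. All tumors were below all DEN-treated livers of their genotype, and the Chop-/- tumors were below every other array. Tk1 fell by 0.75 in wild-type tumors (SE 0.19, adjusted p = 0.00587), a call lost without the tumor on B_12 (log2 difference -0.53, adjusted p = 0.0781), and it was not called against PBS-treated livers (-0.55, adjusted p = 0.0793). In Chop-/- tumors it fell by 1.78 (SE 0.21, adjusted p = 1.25e-06). A second probe for Tk1, detected on 18 arrays, differed by -0.38 and -0.57. In GRCm38.p6 the Tk1 locus overlaps Afmid, and the loci of Aurka, Cdc20, Prc1, Nusap1, Foxm1 and Cdc45 overlap Cstf1, Elovl1, Rccd1, Oip5, Tex52 and Ufd1. Whether a probe lies in such an overlap was not checked.

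Rrm1, the large subunit of ribonucleotide reductase, rose by 0.64 in wild-type tumors (SE 0.17, adjusted p = 0.00839, and 0.0557 without the tumor on A_04), and its small subunit Rrm2 rose by 1.25 (SE 0.31, adjusted p = 0.00501), both against DEN-treated livers. Against PBS-treated livers Rrm1 rose by 0.56 (adjusted p = 0.0464), a call lost without any 1 of the 3 tumors, and Rrm2 differed by 0.94 (adjusted p = 0.0665) and was not called. Rrm2 stood at 6.98, 6.02 and 6.39 in wild-type and 5.66 and 6.52 in Chop-/- tumors, against 4.86 to 5.95 in PBS-treated livers, 4.92 to 5.47 (median 5.29) in DEN-treated wild-type and 4.62 to 6.39 (median 5.24) in DEN-treated Chop-/- livers. In Chop-/- tumors neither subunit was called (adjusted p = 0.126 for Rrm1 and 0.0869 for Rrm2). Tyms, which makes thymidylate de novo, stood at 7.10, 7.29 and 7.71 in wild-type and at 7.81 and 7.87 in Chop-/- tumors. In wild-type livers given DEN it ran from 6.18 to 7.17 (median 6.80), overlapping the tumors. Its difference there was 0.65 (SE 0.24), with an adjusted p that rounds to 0.05, and it was not called without the tumor on B_12 (adjusted p = 0.253) or, in turn, without A_08 or each of 4 of the 6 DEN-treated livers. Against PBS-treated livers Tyms was not called (0.54, adjusted p = 0.186). In Chop-/- tumors, above all DEN-treated Chop-/- livers (6.42 to 7.08, median 6.68), it rose by 1.09 (SE 0.27, adjusted p = 0.00239). A second probe for Tyms, detected on 17 arrays, differed by 0.42 in wild-type and 0.49 in Chop-/- tumors against DEN-treated livers. By their tested probes, the transcripts of the salvage enzyme and the de novo enzyme for thymidylate thus moved in opposite directions in Chop-/- tumors. The differences were smaller by the second probes, and probe sequences were not checked.

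In Chop-/- tumors, 16 of 31 members were called higher and 1 lower than in DEN-treated Chop-/- livers, where 19.1% of all genes were called higher and 20.3% lower. Against PBS-treated Chop-/- livers 17 were called higher and 1 lower, where the background was 21.1% and 22.4%. The median differences were 0.76 and 0.87 over the members (0.66 and 0.64 with bounds) and -0.05 and -0.03 over all genes. Over all 41 members with no filter, 17 were called higher and 1 lower in each comparison, where 10.5% and 10.2% of genes were called against DEN-treated livers and 11.3% and 11.5% against PBS-treated livers. Here too other lists moved against DEN-treated livers, with 5 of 9 macrophage markers called lower, 4 of 7 endothelial markers called higher and 2 lower, and 5 of 8 erythroid markers called higher and 2 lower, and their part was not tested. In both genotypes and against both liver groups, 15 members were called higher. They were Aurka, Birc5, Cdc20, Cdca3, Cdk1, Cenpa, Mad2l1, Mcm2, Mcm6, Nusap1, Plk1, Prc1, Stmn1, Top2a and Tpx2, of which 13 act in mitosis and 2 in replication licensing. The share of all genes called higher in every one of these comparisons was not counted, and the comparisons within a genotype share their tumors. Within array set B the tumor difference from DEN-treated livers for Prc1 was 3.56 in wild-type and 2.40 in Chop-/- mice, and it was 3.09 in set A (wild-type) and 2.44 in set C (Chop-/-). For Tk1 the values were -1.12 (B) and -0.48 (A) in wild-type, and -1.56 (B) and -1.81 (C) in Chop-/- mice.

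Tumors of the 2 genotypes were compared directly. None of the 31 members was called higher in Chop-/- than in wild-type tumors and 2 were called lower, where 4.43% of all genes were called higher and 6.12% lower. A share of 2 in 31 is near that background. The 2 were Tk1, lower by 1.16 on the log2 scale (SE 0.24, adjusted p = 0.00439), and Mcm5, lower by 1.04 (SE 0.25, adjusted p = 0.012), with the levels given above and no overlap. Within set B, with 1 tumor of each genotype, the differences were -0.69 and -1.45. In both cases the tumor effect also differed between genotypes, with an interaction of -1.03 for Tk1 (SE 0.29, adjusted p = 0.0393) and -1.02 for Mcm5 (SE 0.30, adjusted p = 0.0496), where 1.64% of all genes were called higher and 3.05% lower. These calls rest on 2 Chop-/- tumors. Without the tumor on C_24 neither gene was called between tumors (-1.12 with an adjusted p of 0.0872 for Tk1, and -1.14 with 0.0947 for Mcm5) or in the interaction (0.254 for Tk1 and 0.198 for Mcm5), and without that on B_16 4 members were called lower between tumors. Next by p was Cdc45, undetected in Chop-/- tumors and at least 1.1-fold lower there (adjusted p = 0.0872). The values for Tk1 are those of its tested probe. A second probe for Tk1, detected on 18 arrays, differed by only -0.21 between the tumors of the 2 genotypes. With the mean of its probes Tk1 differed by -0.69 (adjusted p = 0.06). With 3 against 2 tumors an exact permutation test of 1 gene cannot go below p = 0.1.

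Over the 31 members the median difference between Chop-/- and wild-type tumors was -0.21, against -0.03 over all genes, and 8 members were above 0. No mitotic member was called. By the tested probes the largest mitotic difference was that of Plk1, at -0.79 (SE 0.43, adjusted p = 0.253), and -0.02 within set B. A second probe for Cdca3, detected on 7 arrays, differed by -0.95, against -0.27 by its tested probe. The differences were 0.06 for Cdk1 (SE 0.34, adjusted p = 0.937), -0.02 for Aurka (SE 0.41, adjusted p = 0.981), -0.04 for Nusap1 (SE 0.37, adjusted p = 0.968) and -0.38 for Prc1 (SE 0.51, adjusted p = 0.695). With standard errors of this size a shared level cannot be claimed for them. The 2 Chop-/- tumors also differed from each other, since Plk1 was at 7.82 on B_16 and 5.77 on C_24, and Prc1 at 9.27 and 8.01. Other cell types moved along this comparison. The summed log2 level of 8 erythroid markers was 14.39 and 15.33 in the Chop-/- tumors and 12.64 to 14.03 on every other array, and that of S100a8 and S100a9, markers of neutrophils and monocytes, was 7.85 and 11.65 against at most 8.31 elsewhere. The macrophage markers summed to 10.15 and 10.37 against 10.30 to 12.07. Their part in the result was not tested.

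In whole livers no member was called for DEN treatment or for genotype. For DEN against PBS, 0 of 31 were called in wild-type mice, where 0% of all genes were called, and 0 in Chop-/- mice, where 0.0223% were called higher and 0% lower. At an unadjusted p under 0.05 the counts were 1 in wild-type mice (2.74% of all genes) and 3 in Chop-/- mice (7.92%). The median log2 difference over the members was 0.08 and 0.15. The wild-type member was Pcna, with a difference of -0.49 (SE 0.23, adjusted p = 1). In Chop-/- livers the 3 were Cdc20, Cdc6 and Mcm7. Cdc20 was undetected in PBS-treated Chop-/- livers and at least 1.15-fold higher in DEN-treated ones, with no overlap (adjusted p = 0.552). Mcm7 differed by -0.50 (SE 0.23, adjusted p = 0.606), and Cdc6 was undetected in all DEN-treated livers.

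Between genotypes, 0 of 31 members were called in DEN-treated livers, where 0.0223% of all genes were, and 0 in PBS-treated livers, where the share was also 0.0223%. None reached an unadjusted p under 0.05 in either comparison (1.68% and 10.5% of all genes did). The smallest p among detected members were for Pcna in DEN-treated livers (log2 difference 0.24, SE 0.18, adjusted p = 1) and for Pcna in PBS-treated livers (-0.47, SE 0.27, adjusted p = 0.534). The response of Pcna to DEN differed between genotypes by 0.70 (SE 0.32, adjusted p = 0.994), the only member under an unadjusted 0.05 for this interaction, where 3.52% of all genes were. The largest ranges over the 13 DEN-treated livers were those of Prc1 (2.63), Nusap1 (1.88) and Plk1 (1.78), and the smallest those of Cdc6 (0.30), Kif11 (0.55) and Top2a (0.61), the last 3 all undetected in these livers. The ranges of Prc1, Nusap1 and Plk1 turned on 1 array.

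**Figure D4:**
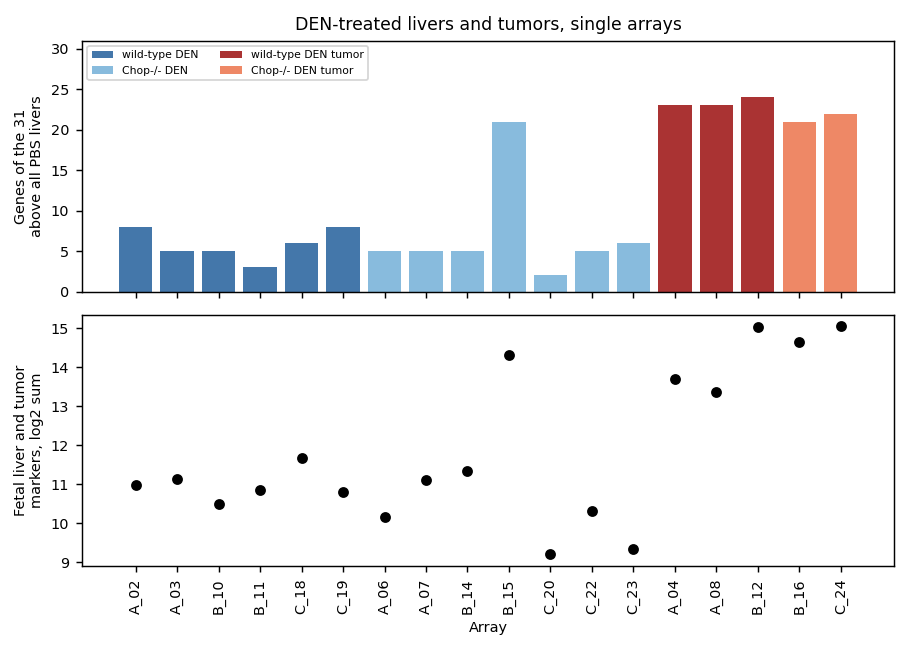
Bars give, for each DEN-treated liver and tumor, how many of the 31 tested genes were above all 6 PBS-treated livers, beside the log2 of the summed level of the fetal liver and liver tumor markers on the same arrays. Array B_15 has 21 genes and a marker sum of 14.30, within the range of the 5 tumors (21 to 24 genes and 13.37 to 15.04), while the other DEN-treated livers have 2 to 8 genes. Over all genes tested the share above all PBS-treated livers, not drawn, was 16.3% on B_15. It was 22.8% to 30.0% in tumors and 8.64% to 13.9% in the other DEN-treated livers.

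That array was B_15, a DEN-treated Chop-/- liver labelled as whole liver. It was above all 6 PBS-treated livers for 21 of 31 members, where 16.3% of all genes were. The other 12 DEN-treated livers were above them for 2 to 8 members, where 8.64% to 13.9% of all genes were. It was the highest of all 19 livers for 19 members (10.2% of all genes), and each other liver for 0 to 2. Of the 20 members called higher in wild-type tumors than in both liver groups, B_15 exceeded every other liver for 17 and lay below every tumor for 15. The 20 were chosen for high levels in tumors, which favors a place of livers below them. The same counts over all genes were not made, so the 17 and 15 have no background share. For these 20 members the excess of B_15 over the median of the other DEN-treated Chop-/- livers had a median of 0.93. It ran from 0.18 to 2.12, the latter for Prc1. For Tk1 it was the lowest DEN-treated liver, at 7.62, the side on which the tumors lay.

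Markers of fetal liver and liver tumors moved with it. Their sum was 14.30 on B_15, at most 11.67 in the other livers, 7.99 to 8.51 in PBS-treated livers and 13.37 to 15.04 in tumors. Afp, the fetal serum protein, was at 11.98 on B_15 and from 4.48 to 7.24 in the other DEN-treated livers, against 8.71 to 9.36 in wild-type and 11.70 and 12.98 in Chop-/- tumors. Erythroid and neutrophil markers on B_15 summed to 13.50 and 6.78, inside the ranges of the other livers. Their part in the result was not tested. Without B_15, 19 members were called higher and 1 lower in Chop-/- tumors against DEN-treated Chop-/- livers, and 0 were called for DEN in Chop-/- mice or for genotype in DEN-treated livers.

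Other genes of S phase and mitosis, from lists written from textbook knowledge, were counted beside the members. Of 45 further S phase genes, 26 were tested, and 9 were called higher and 2 lower in wild-type tumors against DEN-treated livers, and 4 higher and 4 lower in Chop-/- tumors. Uhrf1, which guides DNA methylation at forks, stood at 8.01, 7.31 and 7.56 in wild-type and 6.86 and 6.78 in Chop-/- tumors and rose by 2.27 (SE 0.27, adjusted p = 5.3e-06) and 1.66 (SE 0.31, adjusted p = 0.000183). Lig1, the ligase that seals Okazaki fragments, rose by 1.35 (SE 0.22, adjusted p = 0.000124) and 0.94 (SE 0.25, adjusted p = 0.00494). Mcm10, a factor of helicase activation, went the other way by its probe, whose sequence was not checked. It stood at 10.24, 10.20 and 8.72 in wild-type and 8.87 and 8.89 in Chop-/- tumors and between 11.39 and 12.46 in all livers, and fell by 2.41 in wild-type (SE 0.25, adjusted p = 1.27e-06) and fell by 3.19 in Chop-/- tumors (SE 0.28, adjusted p = 1.75e-08). Dut, which clears dUTP from the nucleotide pool, fell by 0.55 in wild-type tumors (SE 0.19, adjusted p = 0.0391), and in Chop-/- tumors it was undetected (adjusted p = 0.000698).

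Of 59 further mitosis genes, 27 were tested, and 20 were called higher and 0 lower in wild-type tumors against DEN-treated livers, and 15 higher and 1 lower in Chop-/- tumors. Anln, the anillin of the cleavage furrow, stood at 7.04, 6.81 and 6.98 in wild-type and 7.31 and 6.14 in Chop-/- tumors and rose by 2.06 (SE 0.28, adjusted p = 1.59e-05) and 1.91 (SE 0.32, adjusted p = 5.64e-05). On B_15 Anln was at 5.93, above every other liver. Pbk, a mitotic kinase, was undetected in DEN-treated wild-type livers and stood at 7.51, 7.41 and 6.66 in wild-type and 7.47 and 6.87 in Chop-/- tumors (adjusted p = 1.12e-05 and 8e-05), and at 6.63 on B_15. Spc24, a subunit of the kinetochore, was the one that fell in Chop-/- tumors, by 0.89 (SE 0.24, adjusted p = 0.00518). Between tumors of the 2 genotypes, Ncapd2, a condensin subunit, was lower in Chop-/- tumors by 1.00 (SE 0.27, adjusted p = 0.0207), and Clspn and Kif23, undetected in Chop-/- tumors, were called lower too (adjusted p = 0.0333 and 0.00427). The lists were written after earlier results of these data were known, and their counts are a description beside the background shares given above.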

How the data were processed

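Liver and tumor RNA of 24 samples was measured on Illumina MouseRef-8 v2.0 arrays. The intensity of each probe was exported from GenomeStudio 2011.1 as deposited, already background subtracted (26.9% of values lay below 0) and of equal distribution between arrays. A detection p-value per probe and array was deposited with it, and the authors' table of log2 values, the signals after adding a constant, served as an alternative. Sample labels give the groups. Arrays were tied to them by the headings of a supplementary table, whose groups matched those of the value table for 24 of 24 arrays. Another 48 columns of values per sample were not used.

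The neqc function (limma 3.58.1, R 4.3.3, statmod 1.5.0) corrected background through the detection p-values, normalized by quantiles and took log2 after an offset of 16. Genes detected (p under 0.01) on at least 2 arrays were kept by their brightest probe. One limma fit of 6 groups used all 24 arrays, with Benjamini-Hochberg adjustment over 8969 genes, and was tested on simulated data. Replicates are separate samples per the labels, and the study gives the size of each group as a number of animals. The p-values therefore rest on the spread between animals within groups, with technical spread included. That spread was pooled over all 6 groups, mostly livers, and is not that of the compared groups alone. A gene undetected throughout a group has only a bound on its fold, set by the lowest signal of any detected probe. Promoters came from RefSeq (GRCm38.p6). Members, lists and tests were chosen with earlier results of these data known. Values per array are given for Pcna, Top2a, Cdk1, the 10 members with the largest change in wild-type tumors against DEN-treated livers, up to 3 of smallest p in each other comparison, the 3 of largest and of smallest range in DEN-treated livers, the MCM genes and the cyclins. Alternatives were other background corrections, scalings, filters and probe rules, array weights, array set or replicate number as a block, fits of the compared groups only, and leaving out each array.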

Additional observations from a re-analysis of the deposited data

Results flagged for a closer look

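One array stood apart from the other arrays of its group, by the gap between the most extreme and the next value as a share of the group's range. It was B_15 among the 7 DEN-treated Chop-/- livers. It was the highest for Aurka (6.36), Mcm2 (6.14), Mcm6 (7.96), Nusap1 (6.53), Plk1 (6.51) and Prc1 (7.91), the lowest for Tk1 (7.62), and the highest for the median over the tested members (6.39, with 5.53 next). Of 64 groups examined, 8 were marked this way, all 8 in DEN-treated Chop-/- livers and all on B_15, and 0 in DEN-treated wild-type livers. By its construction the threshold marks about 1 in 20 groups by chance where groups are independent. The genes share the array, so these are not 8 separate observations. The rule was not run over all genes, so the 8 have no background share. Among the 13 DEN-treated livers B_15 was the highest for 12.7% of all genes tested.

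The tumor effect differed between the genotypes for 2 members by the interaction term. For Tk1 the log2 difference between tumor and DEN-treated liver was lower by 1.03 in Chop-/- than in wild-type mice, written as -1.03. For Mcm5 the value was -1.02. By a second probe for Tk1, detected on 18 arrays, tumors differed from DEN-treated livers by -0.38 in wild-type and -0.57 in Chop-/- mice. Both rest on 2 Chop-/- tumors, and neither was called without the tumor on C_24 (adjusted p = 0.254 for Tk1 and 0.198 for Mcm5).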

How the results depend on the processing

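No called member changed sign under the alternatives run. Of values that were not called, Cdc6 in Chop-/- tumors against PBS-treated livers went from -0.11 to 0.51 with no filter, which takes another probe, and the median over the members between PBS-treated livers of the 2 genotypes from 0.02 to -0.01. Counts of members called in tumors against livers stayed within 1.5 times the main count, at 17 to 22 for wild-type tumors against PBS-treated and 20 to 24 against DEN-treated livers, and 16 to 19 and 12 to 18 for Chop-/- tumors. The lowest, 12, came with array weights. Leaving out each array in turn gave 18 to 20, 21 to 24, 17 to 19 and 15 to 20 in the same order, and 0 to 0 in every comparison among livers. The count of 2 members between tumors of the 2 genotypes was 1 with the mean of a gene's probes, 1 with array weights and 0 with only the groups compared, and ran from 0 to 4 when single arrays were left out (0 without the tumor on C_24, 4 without that on B_16). The count of 2 for the interaction of tumor and genotype was 1 with no further background correction, 1 with median scaling, 1 with the authors' log2 values and 1 with only the groups compared, 0 with no filter, 0 with the mean of a gene's probes, 0 with array weights and 0 with the array set as a fixed block, and ran from 0 to 3 when arrays were left out. Of 1538 values of single called members under the alternatives, 1419 kept their call, 104 lost it, 15 could not be computed, and the cause of each loss was not tested. Tyms in wild-type tumors was among those lost, with the mean of its probes for example (adjusted p = 0.0776).

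Same-numbered samples did not deviate together (22 pairs, r from -0.19 to 0.32, 3 over 0.1), so they share only a number. On the authors' log2 values the replicate block gave 18, 21, 17 and 15 members for the 4 tumor and liver comparisons, against 19, 24, 17 and 17 with no block, and 1 for the interaction of tumor and genotype with or without it. Groups of 2 and 3 arrays, and dim probes with levels near the background, limit what could be detected, and the 10 members under the detection threshold have no reading here.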
